A study of Mus musculus with 3 samples.

Results

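Il15, Il15ra, Il2rb and Il2rg encode the cytokine IL-15 and the α, β and common γ chains of its receptor, and these 4 of the 32285 counted genes were chosen by name as the ligand and receptor chains of IL-15 trans-presentation. IL-15 is mostly held by the α chain on the cell that makes it and is shown from there to neighbouring cells that carry the β and γ chains. Natural killer (NK) cells and CD8 T cells depend on this signal for survival and expansion, and dendritic cells are among its known sources. The question here was which tumour type 1 conventional dendritic cells (cDC1s) carried transcripts of ligand and α chain, whether both were in the same cell, and which captured barcodes carried the β and γ chains.

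cDC1s, cDC2s and their precursors (pre-cDCs) were sorted by the study out of MCA205 LA OVA tumours, a transplanted mouse fibrosarcoma carrying ovalbumin as a model antigen, and the 3 populations were mixed before droplet-based RNA sequencing. The sort took cells negative for lineage markers, among them CD3e and NK1.1, that were CD11c positive, MHCII positive and CD88 negative, and then gated XCR1 for cDC1s, Sirpa for cDC2s and CD135 with CD43 for pre-cDCs. There was 1 library per genotype, and each came from tumours pooled over mice of both sexes aged 6 to 20 weeks and collected on day 5. No genotype had a replicate, so genotype and library cannot be told apart.

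The WT library came from 37 mice (25 male, 12 female) and held 12763 barcodes with 176578136 unique molecular identifiers (UMIs, counts of captured transcripts). The sGSN-/- library, from mice lacking secreted gelsolin, came from 31 mice (15 male, 16 female) and held 8173 barcodes with 109270958 UMIs. The sGSN-/-Clec9a-/- library, from mice that also lack the dead-cell receptor DNGR-1, came from 27 mice (10 male, 17 female) and held 9273 barcodes with 113411930 UMIs. Median depth was 13210, 11954 and 10649 UMIs per barcode in that order, which is kept below. The deposited cDC1 table listed 2316, 1712 and 1778 of these barcodes in 12 clusters, with 32676177, 23563047 and 21473550 UMIs and median depths of 14092, 14150 and 12231 UMIs. The unit of a level is CPM, a gene's UMIs per 1000000 UMIs of the summed cells.

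The labels were checked on marker genes. Clec9a, the gene of DNGR-1, stood at 0.09 CPM in sGSN-/-Clec9a-/- cDC1s and at 168 CPM in those of both other libraries. All 7 cDC1 markers were detected in the listed cDC1s, with summed levels of 2413, 2384 and 2303 CPM, of which Irf8 gave 1219, 1180 and 1194 CPM. The 7 NK markers summed to 181, 208 and 175 CPM in cDC1s, of which Klrk1 alone gave 166, 171 and 154 CPM, while the defining NK gene Ncr1 stood at 0.40, 2.59 and 0.88 CPM. The 6 T cell markers summed to 2.42, 3.95 and 2.24 CPM. Cell barcode sequences recurred between libraries in 26, 28 and 27 cases (WT with sGSN-/-, WT with sGSN-/-Clec9a-/-, and sGSN-/- with sGSN-/-Clec9a-/-), of which 2, 2 and 3 were cDC1s in both.

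The genes lie on 4 chromosomes of GRCm38 in GENCODE M21. Il15 (ENSMUSG00000031712) is at chr8:82331632-82403222 on the minus strand and Il15ra (ENSMUSG00000023206) at chr2:11705290-11734317 on the plus strand. Il2rb (ENSMUSG00000068227) is at chr15:78479256-78495271 and Il2rg (ENSMUSG00000031304) at chrX:101264378-101268255, both on the minus strand. Il2rg is overlapped on its own strand by Gm20489, which is not among the counted genes.

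Among the deposited clusters, cluster 8 held the highest mean level of Il15, Il15ra and Il2rg, and cluster 7 came close to it for the ligand alone. Cluster 8 had 255 cells (84, 114 and 57), of which 211 held Ccr7, the chemokine receptor of migrating dendritic cells. Its 6 activation markers summed to 6614, 5414 and 3697 CPM, against 249.8, 337 and 128 CPM in all cDC1s. Its 7 macrophage markers summed to 565, 52.7 and 67.9 CPM, led by Apoe at 256, 19.7 and 33.0 CPM. Its NK markers summed to 183, 335 and 186 CPM, led by Klrk1 at 169.5, 226 and 153 CPM, with Ncr1 and Klrb1c at 0 in the WT and sGSN-/-Clec9a-/- libraries and at 8.66 and 7.87 CPM in sGSN-/-. The part of the macrophage transcripts in the levels below was not tested. Without the cells that held NK or T cell UMIs, mean levels in cluster 8 were 32.8 CPM for Il15, 90.3 for Il15ra, 2.51 for Il2rb and 121 for Il2rg, within 1 SD of those given below. Clusters were called on these same counts, so their levels are a description without a test. Means are over the 3 libraries with their SD, intervals are 95% exact Poisson for levels and 95% Clopper-Pearson for shares, and both cover counting error only.

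For the ligand, Il15 stood at 26.2 CPM (17.2 to 38.1), 35.4 CPM (25.8 to 47.4) and 29.1 CPM (16.3 to 48.0) in cluster 8, a mean of 30.2 ± 4.73 CPM (SD, n = 3). In cluster 7, with 422 cells, it stood at 30.7 CPM (23.9 to 38.8), 31.7 CPM (24.6 to 40.3) and 18.8 CPM (13.0 to 26.4), a mean of 27.1 ± 7.18 CPM. The library ranges of these 2 clusters overlapped, so their Il15 levels did not differ beyond the spread, and both lay above every library of the other clusters. Cluster 9 followed at 13.0 ± 4.37 CPM, then cluster 6 at 8.97 ± 3.45, cluster 3 at 7.95 ± 1.91 and cluster 2 at 7.94 ± 2.08 CPM. These 4 overlapped from neighbour to neighbour, and cluster 2 did not overlap with the next, cluster 0, at 5.36 ± 1.16 CPM. Clusters 10, 5, 4 and 1 closed the order with 4.42, 3.95, 3.03 and 2.10 CPM and overlapped in turn. Cluster 11, 60 cells with a median of 2348 UMIs, gave no Il15 UMI among 150984 UMIs, where 3 UMIs would read as 19.9 CPM, so that most of the levels above were not detectable there.

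The α chain was far more concentrated. Il15ra stood at 66.8 CPM (52.0 to 84.6), 102 CPM (85.5 to 121.5) and 83.4 CPM (60.4 to 112) in cluster 8, a mean of 84.2 ± 17.8 CPM. Its next level was 7.69 ± 0.62 CPM in cluster 6, whose library range overlapped neither with cluster 8 nor with the cluster after it. From cluster 9 (4.78 ± 1.16 CPM) and cluster 7 (3.44 ± 1.59 CPM) down to cluster 10 (1.12 ± 1.93 CPM), neighbours in the order overlapped, with clusters 2, 5, 3, 4, 0 and 1 between 3.37 and 2.15 CPM. Cluster 11 gave no Il15ra UMI. Cluster 7 thus paired an Il15 level like that of cluster 8 with Il15ra at 4.82, 3.79 and 1.71 CPM, far below every library of cluster 8.

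The β chain, the signalling subunit shared with the IL-2 receptor, was low in every cDC1 cluster. Il2rb stood at 3.88, 11.02 and 0 CPM in cluster 8, a mean of 4.97 ± 5.59 CPM, and the last value is 0 of 515307 UMIs, with an interval up to 7.16 CPM and 3 UMIs reading as 5.82 CPM. Of the cluster's 18 Il2rb UMIs, 9 were in 1 cell of the sGSN-/- library. The other clusters lay between 4.62 CPM in cluster 6 and 1.12 CPM in cluster 10, with 0 UMIs in cluster 11. All neighbours with counts overlapped, so no order of Il2rb levels could be read among cDC1 clusters.

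The common γ chain serves the receptors of several interleukins, so it is not particular to IL-15. Il2rg stood at 138.5 CPM (117 to 163), 131.5 CPM (112 to 153) and 110.6 CPM (83.8 to 143) in cluster 8, a mean of 127 ± 14.5 CPM. Cluster 10, with 76 cells of which 70 held the chemokine gene Cxcl9, came next with 63.8, 29.0 and 20.1 CPM, a mean of 37.6 ± 23.1 CPM, and did not overlap with cluster 8. Cluster 4 stood at 24.5, 23.8 and 24.9 CPM and overlapped with cluster 10 but not with cluster 9 at 18.2 ± 3.90 CPM. Below it came cluster 11 at 16.2 ± 14.1 CPM from 3 UMIs, cluster 7 at 12.5 ± 1.65 and cluster 1 at 8.30 ± 0.58 CPM. Clusters 5, 6, 2, 0 and 3 lay between 5.57 and 4.83 CPM and overlapped with one another in turn. So Il2rg had intermediate clusters, 10 and 4. In cluster 4, Il15 was below the level of the other cDC1s in 3 of 3 libraries, while Il15ra, at 1.17, 2.98 and 3.40 CPM, was below the cDC1s outside cluster 8 in WT alone. In cluster 10 Il15 and Il15ra rest on 4 UMIs and 1 UMI, and 3 UMIs would read as 10.6, 9.67 and 10.04 CPM by library, so levels like those of most clusters were not detectable there.

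**Figure D1:**
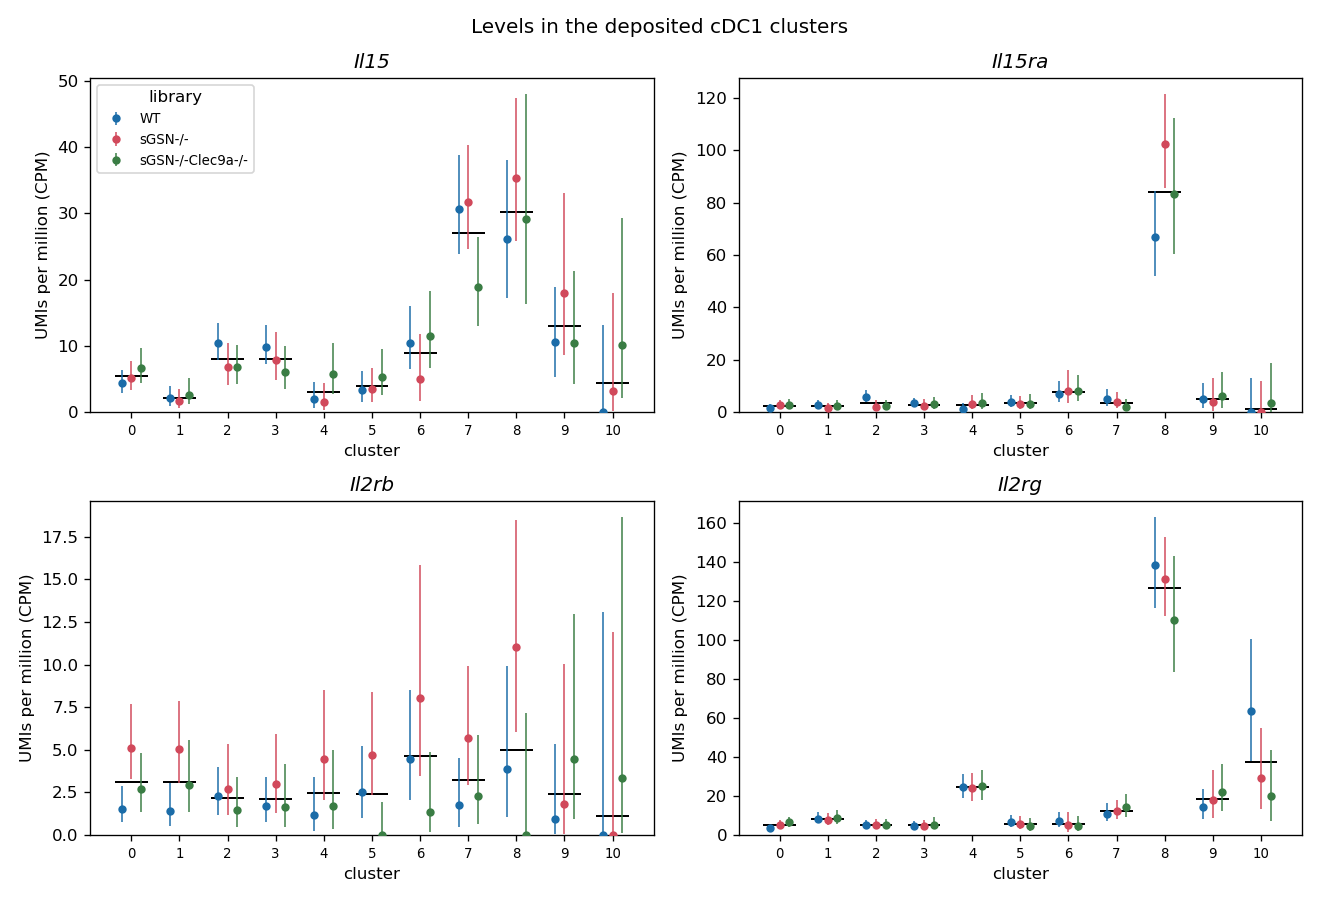
Levels in CPM of Il15, Il15ra, Il2rb and Il2rg (y axes) in cDC1 clusters 0 to 10 (x axes), with points for the 3 libraries, bars for the 95% Poisson interval and a black line for the mean of libraries. Il15 is high in clusters 7 and 8, Il15ra and Il2rg stand highest in cluster 8, and Il2rb stays at or under 11.02 CPM in every cluster.

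Against the other cDC1s of its own library, cluster 8 held 3.27, 4.81 and 3.99 times the level of Il15, 19.4, 37.4 and 26.9 times that of Il15ra, and 16.8, 15.3 and 12.2 times that of Il2rg. Cluster 7 held 4.44, 4.79 and 2.75 times the Il15 level of the other cDC1s, but 0.878, 0.444 and 0.321 times their Il15ra level. Those other cDC1s include cluster 8, and beside the cDC1s outside cluster 8, at 3.44, 2.74 and 3.10 CPM, the Il15ra level of cluster 7 was higher in 2 of 3 libraries. Cluster 4 held 2.16, 1.65 and 2.42 times their Il2rg level. In cluster 9, Il15 at 10.6, 18.0 and 10.4 CPM also lay above all cDC1s, at 8.57, 8.87 and 7.82 CPM. Of clusters 7 and 8, both thus held more ligand than the other cDC1s in each library, and only cluster 8 held more α chain in each.

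The same can be read from where the UMIs lay. Cluster 8 made up 4.39% of cDC1s and 3.63% of their UMIs, and it held 242 of the 477 Il15ra UMIs (50.7%), 367 of the 1010 Il2rg UMIs (36.3%), 87 of the 657 Il15 UMIs (13.2%) and 18 of the 219 Il2rb UMIs (8.22%). Cluster 7 made up 7.27% of cDC1s and 7.91% of their UMIs, and it held 170 of the Il15 UMIs (25.9%) beside 4.61% of those of Il15ra. Single cells of cluster 8 held up to 12 Il15ra, 13 Il2rg, 9 Il2rb and 4 Il15 UMIs, while the highest Il15 count of any cDC1, 7 UMIs, was in cluster 7.

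Among the UMIs of ligand and α chain together, Il15ra made up 71.9%, 74.3% and 74.1% in cluster 8, or 73.6% over the libraries (68.4 to 78.2). In cluster 7 it made up 13.6%, 10.7% and 8.33%, or 11.5% (7.32 to 16.8). The libraries of the 2 clusters did not come near each other in this share. Clusters 0, 2, 3 and 9 lay between 25.5% and 31.2%, and clusters 1, 4, 5 and 6 at 51.1%, 45.5%, 46.0% and 44.2%. Cluster 10 had only 5 such UMIs and cluster 11 none. A share of UMIs depends on how well each transcript is captured, so it compares clusters and does not rank the 2 transcripts.

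Per cell, 22.4% of cluster 8 held an Il15 UMI (17.9%, 28.1% and 17.5%), 40.0% held Il15ra (33.3%, 50.9% and 28.1%) and 60.8% held Il2rg (65.5%, 62.3% and 50.9%), at a median of 10867 UMIs. In cluster 7, at a median of 14253.5 UMIs, 27.5% held Il15 (31.2%, 32.1% and 18.7%), 5.21% held Il15ra and 10.9% held Il2rg. Over all cDC1s the shares were 9.06% for Il15, 5.55% for Il15ra, 3.41% for Il2rb and 10.99% for Il2rg, at a median of 13501 UMIs. Free RNA gives some UMIs in any droplet, and the lowest shares outside the cDC1 table were in barcodes with Siglech, a gene of plasmacytoid dendritic cells. Of these, 1.93% held Il15 and 1.34% held Il15ra at a median of 10253 UMIs, below clusters 7 and 8 for both genes. Barcodes with high C1q, a macrophage product, held Il15 in 7.68% and Il15ra in 4.48% at a median of 15323 UMIs, and macrophages are themselves known to make IL-15. The cDC1s outside cluster 8 held them in 8.45% and 3.96%, which is close to the C1q barcodes, so low shares of either gene there are not read as expression particular to cDC1s. Il2rb was in 3.44% of the C1q barcodes (2.52%, 5.96% and 3.37% by library). The 3.41% of cDC1s (2.68%, 5.49% and 2.36%) is close to that and is not read as expression. No population here should lack Il2rg, and its lowest shares were 3.33% in the shallow cluster 11 (2 of 60 cells), 4.62% in cluster 6 and 6.14% in cluster 3.

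Depth was then made equal by drawing 3900 UMIs from each cell, which left out 288 shallower cDC1s. Cluster 8, with 198 cells kept and 57 left out, still held Il15 in 11.6%, Il15ra in 26.8% and Il2rg in 31.3% of cells. Cluster 7, with 411 kept and 11 left out, held them in 10.2%, 0.73% and 5.11%. At equal depth, both clusters stood above the 3.33% of all cDC1s with Il15, and cluster 8 stood above their 2.08% with Il15ra and 4.08% with Il2rg.

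Trans-presentation needs ligand and α chain in 1 cell. Il15 and Il15ra UMIs were together in 75 of the 5806 cDC1s, 30, 34 and 11 by library, which is 1.29% (1.02 to 1.62). The 2 shares multiplied within each library and cluster give 46.1 cells, or 16.4, 22.1 and 7.64 by library, so more cells than that product held both in each of the 3 libraries. Of the 75 cells, 39 (52.0%) were in cluster 8 and 10 in cluster 7. Deeper cells hold more of any gene. With depth made equal as above, both genes were together in 6, 6 and 4 cells by library. The product of shares was then 3.26, 3.26 and 1.44 cells, so the excess remained in each library at equal depth, from few cells. No doublet caller was run, so the part of doublets in the excess was not tested.

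Within cluster 8, 57 cells held Il15, 102 held Il15ra and 39 held both, 11, 22 and 6 by library, against 24.1 from the product of shares (5, 16.3 and 2.81). That is 15.3% of the cluster (11.1 to 20.3). Of its Il15 cells, 68.4% also held Il15ra (73.3%, 68.8% and 60%), and of its Il15ra cells 38.2% also held Il15. In cluster 7 only 8.62% of the Il15 cells held Il15ra, with 10 cells holding both against 6.56 from the product. Outside cluster 8, 36 cells held both against 22.0. By library these were 19, 12 and 5 cells against 11.4, 5.78 and 4.83, so sGSN-/-Clec9a-/- lay close to the product there. At 3900 UMIs per cell, 16 cDC1s held both against 7.96, and 12 of those were among the 198 cells of cluster 8.

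The γ chain was in many of the same cells. In cluster 8, 76 cells held Il15ra and Il2rg, 27, 39 and 10 by library, against 62.6 from the product, and they made up 74.5% of the cluster's Il15ra cells. Il15 and Il2rg were together in 45 cells of cluster 8 against 34.8, and in 13 cells of cluster 7 against 13.0. The β and γ chains were together in 26 of all cDC1s against 22.3, and in 9 cells of cluster 8 against 6.36. These last pairs rest on few cells, since Il2rb was rare in cDC1s.

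Il15 was alike in the 3 genotypes within counting error. All cDC1s of the WT, sGSN-/- and sGSN-/-Clec9a-/- libraries held 8.57 CPM (7.59 to 9.63), 8.87 CPM (7.71 to 10.2) and 7.82 CPM (6.69 to 9.10), with intervals that overlapped. Il15ra stood at 5.45 CPM (4.68 to 6.31), 8.11 CPM (6.997 to 9.34) and 5.03 CPM (4.13 to 6.07), highest in sGSN-/- beyond counting error. Cluster 8 made up 3.63%, 6.66% and 3.21% of cDC1s in the same order, and outside it Il15ra stood at 3.44, 2.74 and 3.10 CPM, lowest in sGSN-/-. With all clusters weighted equally the Il15ra levels were 8.44, 11.02 and 9.93 CPM.

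Il2rg followed the same order, at 12.4 CPM (11.2 to 13.6), 15.2 CPM (13.7 to 16.9) and 11.5 CPM (10.1 to 13.0), and stood at 8.25, 8.61 and 9.07 CPM outside cluster 8. With clusters weighted equally it was 25.9, 22.8 and 18.9 CPM, so WT was then the highest. Il2rb stood at 1.96 CPM (1.51 to 2.50), 4.80 CPM (3.95 to 5.77) and 1.96 CPM (1.41 to 2.64). The NK gene Ncr1 moved with it, in 0.561%, 3.10% and 1.01% of cDC1s. In the cDC1s without an Ncr1 UMI, Il2rb stood at 1.97, 4.09 and 1.93 CPM. The part of NK transcripts in the Il2rb difference was not tested. These are single libraries, and no spread between replicates stands behind the differences.

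Cells grouped by 1 gene that is not among the 4 allowed tests that the clusters do not. UMIs were summed per library and group. The quasi-likelihood test of edgeR was run over all genes, with p-values adjusted by Benjamini-Hochberg and a threshold of 0.05. Standard errors (SE) are those of log2 fold changes. The comparisons by Ccr7 and by Cxcl9 share cells, so their values stand side by side and are not compared.

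cDC1s with Ccr7 carried more ligand, α chain and γ chain than cDC1s without. There were 104, 138 and 52 cells with Ccr7 at median depths of 12697, 12808.5 and 8878 UMIs, against 2212, 1574 and 1726 without at 14133, 14238.5 and 12278 UMIs. Il15 stood at 23.2, 32.6 and 27.6 CPM with Ccr7 and at 7.90, 7.004 and 7.35 CPM without. Il15ra stood at 49.8, 70.9 and 80.7 CPM against 3.42, 3.16 and 3.20 CPM, and Il2rg at 96.9, 97.1 and 92.6 CPM against 8.51, 8.79 and 9.54 CPM. For these 3 genes every library of the first group lay above every library of the second. Il2rb stood at 2.81, 8.72 and 0 CPM against 1.92, 4.49 and 2.003 CPM, and there the groups overlapped.

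Il15ra rose by a log2 fold change of 4.42 ± 0.18 (SE; edgeR, adjusted p = 4.98e-12), Il2rg by 3.55 ± 0.12 (adjusted p = 2.97e-13) and Il15 by 2.03 ± 0.19 (adjusted p = 1.82e-07), each higher in 3 of 3 libraries. Il2rb did not pass at 1.02 ± 0.63 (edgeR, adjusted p = 0.231), with a higher value in 2 of 3 libraries. Without the cells that held NK or T cell UMIs its log2 fold change was -0.05 (edgeR, adjusted p = 0.970), so no direction is read for Il2rb. So 3 of the 4 genes were called higher, where 20% of the 10949 genes tested were called higher and 16.3% lower. The count of called genes was 3982, and without the sGSN-/- library it was 2608. Of the cells with Ccr7, the 31, 37 and 15 outside cluster 8 gave log2 fold changes of 0.86 for Il15 (edgeR, adjusted p = 0.534), -0.47 for Il15ra (0.932), -1.86 for Il2rb (0.773) and 0.40 for Il2rg (0.817), with 61 genes called. None of the 4 genes passed the test outside cluster 8, and each log2 fold change was also lower there. Far fewer cells held Ccr7 there, and the part of cell number was not tested.

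cDC1s with Cxcl9, a chemokine gene induced by interferon γ, carried more γ chain and somewhat more ligand. There were 264, 222 and 192 such cells against 2052, 1490 and 1586 without. Of the cells with Cxcl9, 138 were in cluster 7, 77 in cluster 8, 83 in cluster 9 and 70 in cluster 10, so the groups also differ in their clusters. Outside cluster 10 the log2 fold change of Il15 was 1.13 (edgeR, adjusted p = 0.00484), and the part of the other clusters was not tested. Il2rg stood at 31.6, 36.7 and 23.6 CPM against 9.66, 11.5 and 9.85 CPM, and Il15 at 14.2, 19.7 and 9.67 CPM against 7.78, 7.01 and 7.57 CPM. For both genes the groups did not overlap. Il15ra stood at 7.22, 10.7 and 5.80 CPM against 5.20, 7.66 and 4.92 CPM, and Il2rb at 2.24, 7.52 and 1.55 CPM against 1.92, 4.33 and 2.01 CPM. In both of these the groups overlapped.

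Il2rg rose by 1.65 ± 0.14 (SE, log2; edgeR, adjusted p = 1.95e-05) and Il15 by 1.04 ± 0.19 (adjusted p = 0.00533), each higher in 3 of 3 libraries. Il15ra did not pass at 0.50 ± 0.26 (edgeR, adjusted p = 0.307), though higher in 3 of 3 libraries, nor did Il2rb at 0.57 ± 0.52 (adjusted p = 0.621), higher in 2 of 3. These 2 calls stand against 7.03% of the 10868 genes called higher and 1.23% called lower. The Il15 call was lost without the WT library (1.13, edgeR adjusted p = 0.0636) and without the sGSN-/- library (0.71, adjusted p = 0.105). The count of called genes, 898, was 446 and 391 without these libraries and 503 at 3900 UMIs per cell. With the library as a block, which pairs the sums of 1 library, 1587 genes were called and the log2 fold change of Il15 was 1.03 (edgeR, adjusted p = 5.20e-05).

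Set directly against each other, cells with Ccr7 and no Cxcl9 (68, 100 and 36) held more of all 3 tested genes than cells with Cxcl9 and no Ccr7 (228, 184 and 176). Il15 stood at 22.6, 25.9 and 34.6 CPM in the first group and at 12.7, 14.0 and 9.18 CPM in the second. Il15ra stood at 60.9, 89.4 and 113 CPM against 3.45, 2.88 and 4.17 CPM, and Il2rg at 98.1, 80.7 and 110.2 CPM against 21.9, 15.8 and 20.5 CPM. No group ranges overlapped, and the α chain was the most unequal of the 3. Il2rb, with 3, 2 and 0 UMIs against 8, 13 and 4, was left out by the filter on low counts.

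Il15ra was higher by 4.64 ± 0.27 (SE, log2; edgeR, adjusted p = 6.44e-12), Il2rg by 2.33 ± 0.18 (adjusted p = 6.19e-10) and Il15 by 1.19 ± 0.27 (adjusted p = 0.00190), each in 3 of 3 libraries. Of the 7901 genes tested, 16.7% were called higher and 11.9% lower. Without the sGSN-/- library the count of called genes was 1325 in place of 2261.

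The β and γ chains were sought in barcodes with Ncr1, which encodes the NK receptor NKp46. Although the sort removed NK1.1-positive cells, 1016, 1605 and 1216 barcodes outside the cDC1 table held Ncr1, at median depths of 11227.5, 8776 and 8002.5 UMIs. All 7 NK markers were detected in them, with summed levels of 4340, 4522 and 4673 CPM and the granzyme gene Gzma on top at 2564, 2773 and 2985 CPM. The 6 T cell markers summed to 76.9, 88.5 and 95.3 CPM, the cDC1 markers to 747, 843 and 787 CPM, most of it Irf8, and the 7 macrophage markers to 651, 469.5 and 792 CPM. Among the cDC1s, 1.45% held an Ncr1 UMI.

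These barcodes carried both receptor chains at high level. Il2rb stood at 493, 494 and 468 CPM, from 7262, 10288 and 6556 UMIs, against 1.97, 4.09 and 1.93 CPM in cDC1s without Ncr1. Il2rg stood at 231, 221 and 198 CPM against 12.4, 14.6 and 11.6 CPM. The ligand ran the other way, with Il15 at 2.51, 2.97 and 3.21 CPM against 8.55, 8.48 and 7.496 CPM. Il15ra stood at 4.82, 5.56 and 4.57 CPM against 5.47, 7.91 and 4.998 CPM, where the groups overlapped, while for the other 3 genes they did not.

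Il2rb was higher in these barcodes by 7.26 ± 0.20 (SE, log2; edgeR, adjusted p = 2.18e-09) and Il2rg by 3.81 ± 0.09 (adjusted p = 9.58e-10), each in 3 of 3 libraries. Il15 was lower, at -1.77 ± 0.13 (edgeR, adjusted p = 9.46e-07), in 3 of 3 libraries. Il15ra was lower at -0.55 ± 0.18 (edgeR, adjusted p = 0.0173) in 3 of 3 libraries. That Il15ra call was lost without the WT library (-0.62, edgeR adjusted p = 0.0507), without TMM scaling (-0.28, adjusted p = 0.192) and at 3900 UMIs per barcode (-0.25, adjusted p = 0.424). The background was wide, with 36.4% of 12490 genes called higher and 34.1% lower.

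Most barcodes with Ncr1 held both chains. Il2rb was detected in 91.8%, 89.4% and 90.0% of them and Il2rg in 86.8%, 81.4% and 77.8%. Both were in 76.3% (74.9 to 77.6), 2928 of the 3837 barcodes against 2829 from the product of shares, and neither was in 4.40%. In cDC1s without Ncr1, at a median of 13477.5 UMIs against 9258, Il2rb was in 3.27%, Il2rg in 10.98% and both in 0.402%. Detection of the receptor pair thus separated the 2 groups widely in spite of the lower depth of the Ncr1 barcodes.

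The receptor chains were lowest in barcodes with a single Ncr1 UMI. Barcodes with 1, 2 and 3 or more Ncr1 UMIs numbered 1034, 638 and 2165, at median depths of 6320, 6570 and 11623 UMIs. Both chains were in 51.5%, 76.0% and 88.2% of them. Il2rb stood at 364, 558 and 507 CPM and Il2rg at 176, 234 and 225 CPM, as means of libraries, lowest with 1 UMI. Between 2 and 3 or more UMIs the libraries overlapped for both chains, so no order is read there. At 3900 UMIs per barcode, with 727, 486 and 2002 kept, both chains were in 36.2%, 55.3% and 51.3%, so at equal depth the share no longer rose from 2 to 3 or more. Over all 3215 barcodes kept, with 622 left out, Il2rb was in 78.7%, Il2rg in 57.6% and both in 48.5%. In the 2923 barcodes without Xcr1, Cd3d, Cd3e or C1qa UMIs, Il2rb stood at 569 ± 15.4 CPM and Il2rg at 243 ± 11.9 CPM (SD, n = 3).

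The 84 cDC1s with an Ncr1 UMI (13, 53 and 18) held Il2rb in 13.1% and Il2rg in 11.9%. By library the Il2rb shares were 0%, 18.9% and 5.56%, so the cells with Il2rb were nearly all from sGSN-/-. In each library the share was far below that of the Ncr1 barcodes outside the table.

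Other barcodes outside the table placed these levels. They were grouped by Cd3 genes (370 barcodes), Siglech (674), C1q (4155), Ccr7 with Fscn1 (136), Cd209a (6153) and the rest (9078). Il2rb was highest with Ncr1 at 485 ± 14.5 CPM, then with Cd3 genes at 197 ± 12.9 CPM, and no library of one overlapped with the other. The rest held 33.6 ± 18.7 CPM and the Ccr7 with Fscn1 group 9.97 ± 12.9 CPM, and from there down to 3.37 CPM with C1q all neighbours overlapped.

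Il2rg was spread far more widely over these groups. It stood at 217 ± 16.7 CPM with Ncr1 and 213 ± 0.72 CPM with Cd3 genes, which overlapped. The Ccr7 with Fscn1, Siglech and Cd209a groups followed at 129 ± 32.2, 116 ± 21.0 and 114.5 ± 3.68 CPM and overlapped in turn. C1q barcodes and the rest, at 64.1 ± 3.07 and 63.3 ± 6.14 CPM, overlapped too. Every one of these levels was above the 13.0 CPM of all cDC1s, and the 127 CPM of cluster 8 fell among the middle groups.

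On the ligand side, the group with Ccr7 and Fscn1 stood first here as well. Il15 stood there at 16.8, 25.6 and 16.1 CPM, a mean of 19.5 ± 5.29 CPM, above C1q barcodes at 5.31 ± 0.32 CPM with no overlap of library values. The 16.1 CPM of sGSN-/-Clec9a-/- rests on 3 UMIs in 12 barcodes. Its interval, 3.33 to 47.1 CPM, takes in the 5.64 CPM of C1q barcodes in that library. The lowest Il15 means were 1.91 CPM with Cd3 genes and 1.82 CPM with Siglech. Il15ra stood at 16.8, 40.5 and 48.4 CPM in the group with Ccr7 and Fscn1, a mean of 35.2 ± 16.5 CPM, followed by Cd3 barcodes at 10.1 ± 0.54 CPM and Ncr1 barcodes at 4.99 ± 0.52 CPM, none of which overlapped. The 61, 63 and 12 barcodes of this group held cDC1 markers at a summed 648 CPM, of which Irf8 gave 558 CPM, and cDC2 markers at 615 CPM. The defining cDC1 genes Xcr1 and Clec9a stood at means of 7.34 and 4.66 CPM, against 149 and 57.8 CPM in cluster 8, with the library lacking Clec9a counted in both. Of the listed cDC1s, 1.81% would pass the same gate.

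**Figure D2:**
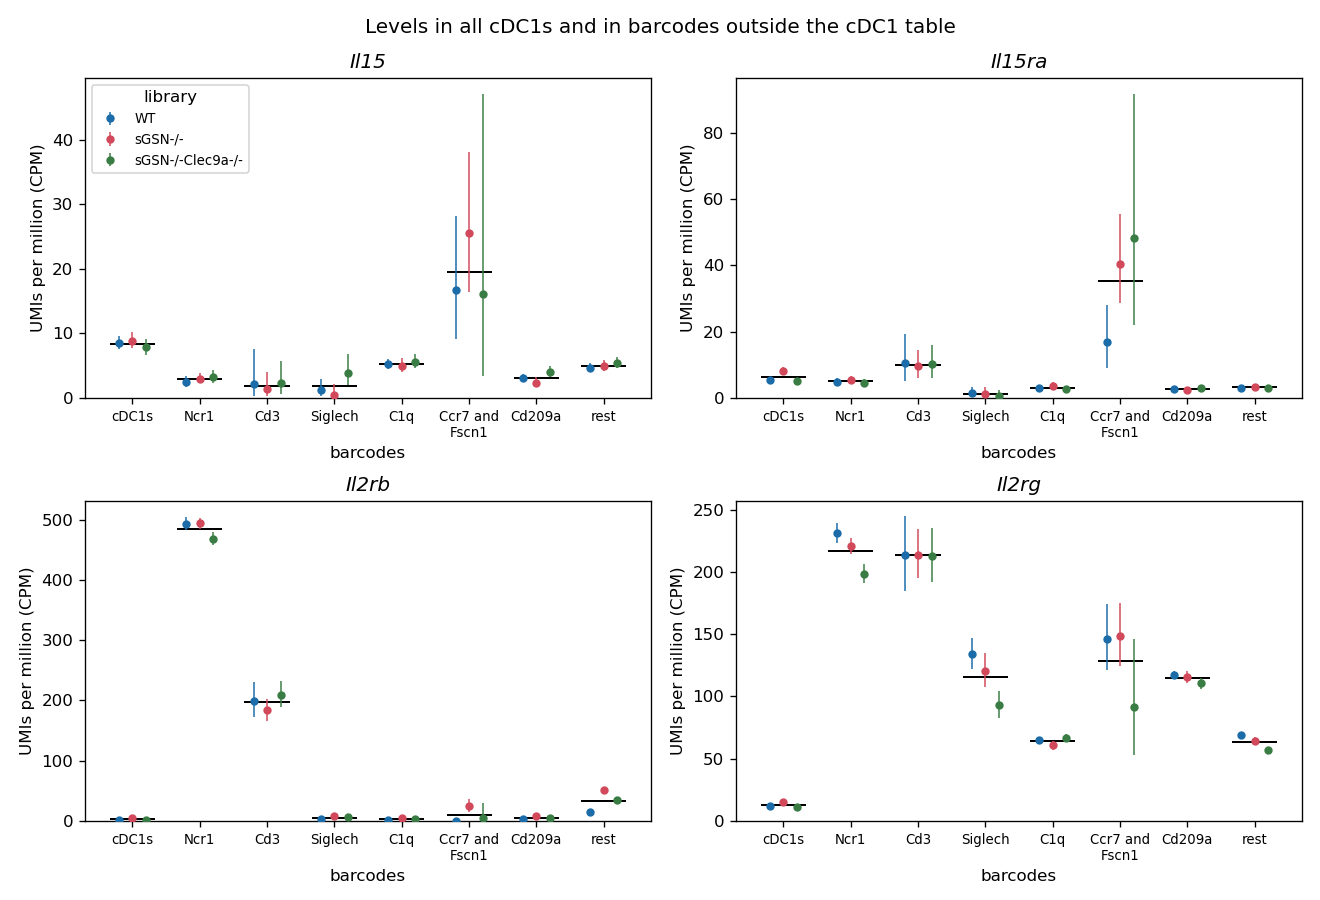
Levels in CPM of Il15, Il15ra, Il2rb and Il2rg (y axes) in all cDC1s and in barcodes outside the cDC1 table grouped by their genes (x axes), with points for the 3 libraries, bars for the 95% Poisson interval and a black line for the mean of libraries. Il15 and Il15ra are highest in barcodes with Ccr7 and Fscn1, and Il2rb is highest with Ncr1 at 485 CPM and with Cd3 genes at 197 CPM.

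A list of 41 other genes of the pathway was followed in the same comparisons, and 35 of them were tested in each. The other 6 were Il2, Il21, Il4, Il7, Il9 and Il9r. The list was chosen with earlier results of these data known. Its counts beside those of all genes are therefore a description and not a test of the list. In cDC1s with Ccr7, 23 rose and 2 fell, where 20% and 16.3% of all genes did, with a median log2 fold change of 0.83 against -0.04 over all genes. Socs2, a feedback inhibitor of cytokine signalling, rose by 8.04 ± 0.23 (SE; edgeR, adjusted p = 6.08e-14), the IL-7 receptor gene Il7r by 5.15 ± 0.20 (adjusted p = 2.98e-12) and the IL-2 receptor α chain gene Il2ra by 4.75 ± 0.25 (adjusted p = 1.20e-10). The lowest past the threshold were Ifngr1 at -0.92 ± 0.11, Pik3cd at -0.68 ± 0.12 and Mcl1 at 0.25 ± 0.09.

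In cDC1s with Cxcl9, 20 of the 35 rose and 1 fell, where 7.03% and 1.23% of all genes did, with a median of 0.38 against -0.01. The highest were Irf1, a transcription factor of the interferon response, at 2.12 ± 0.07, Il2ra at 2.10 ± 0.39 and Socs2 at 1.99 ± 0.48. Of these, Il2ra and Socs2 stood at 31.6 and 254 CPM in cluster 8, against 1.12 and 11.2 CPM in cluster 10. Cluster 8 held 77 of the cells with Cxcl9, and its part in these 2 rises was not tested. The lowest past the threshold were Ifngr1 at -0.44 ± 0.08, Ifnar1 at 0.30 ± 0.07 and Rela at 0.34 ± 0.08. In cells with Ccr7 and no Cxcl9 against the reverse, 14 were higher and 5 lower, beside 16.7% and 11.9% of all genes, with a median of 0.26 against 0.00. There Socs2 led at 7.38 ± 0.27, Il7r at 4.34 ± 0.29 and Il2ra at 3.65 ± 0.50, while the interferon genes Irf7 (-1.43 ± 0.15) and Stat2 (-0.85 ± 0.15) and the kinase gene Pik3cd (-0.66 ± 0.18) were lowest. In Ncr1 barcodes 11 were higher and 14 lower, with a median of -0.11 against 0.04, and with 36.4% and 34.1% of all genes called these counts are near the background. Bcl2, a survival gene, was higher by 4.11 ± 0.12, Il7r by 2.50 ± 0.14 and the feedback gene Cish by 2.37 ± 0.12, and Stat2 (-2.24 ± 0.10), Irf7 (-2.0 ± 0.17) and Irf9 (-1.36 ± 0.08) were lowest.

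The 2 clusters with high Il15 differed in these genes. Cluster 7 held the highest level of Irf7, at 1132 CPM against 389.7 in cluster 8, and of Stat2, at 201 against 69.2 CPM. Irf1 and Nlrc5 of the same list ran the other way, at 84.6 and 36.3 CPM in cluster 7 against 238 and 92.6 CPM in cluster 8. Cluster 8 held the highest level of Relb, a subunit of NF-κB, at 501 CPM against 28.2 in cluster 7, and of Nfkb1, at 323 against 78.4 CPM. Cluster 10 held the highest Irf1, at 664 CPM, beside Il15 at 4.49 CPM from 4 UMIs. These values come from counts summed over libraries and describe the clusters without a test.

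Genes with the most similar pattern were found over 11 clusters, which share 3 libraries, among 6160 genes at 20 CPM or more in 1 of them. For Il15 these were Znfx1 (Pearson r = 0.94; 0.83, 0.86 and 0.73 within the libraries), Abcg1 (0.94), Otud5 (0.92), Map2k1 (0.91) and Ankrd12 (0.89), with the lowest value within a library at 0.59 for Ankrd12 in sGSN-/-. For Il15ra they were Nfe2l1 (0.98; 0.73, 0.95 and 0.73), Stk4 (0.97), Cd2bp2 (0.97), Map4k4 (0.96) and Hsf2 (0.96). Within the sGSN-/-Clec9a-/- library r was only 0.54 for Stk4 and 0.42 for Cd2bp2. For Il2rg they were Arl5c (0.96; 0.90, 0.96 and 0.93), Serpinb1a (0.96), Glipr2 (0.95), Traf1 (0.94) and Ccl22 (0.94), with the lowest value within a library at 0.69 for Ccl22 in sGSN-/-Clec9a-/-. As means of libraries, Il15ra stood at 84.2 CPM in cluster 8 and 7.69 CPM in the next cluster, and Il2rg at 127 and 37.6 CPM. Their r values thus lean on cluster 8, and genes that peak there score high. Between the genes themselves r was 0.69 for Il15 and Il15ra, 0.60 for Il15ra and Il2rg and 0.39 for Il15 and Il2rg. Il2rb was under 20 CPM in each cluster, so genes with a pattern like its own were not sought. Its r was 0.82 with Il15ra, 0.53 with Il15 and 0.28 with Il2rg, from low levels without a readable order.

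The promoter of Il15ra is shown because it held a match to a motif searched. The table of RefSeq promoters (GRCm38.p6) matched 2 of the 4 genes, Il15ra with 2 starts and Il2rg with 1, and holds no entry for Il15 and Il2rb. The 250 bases before each start were searched on both strands for GAAANNGAA, the core of the interferon-stimulated response element, for the STAT motif TTCNNNGAA and for the NF-κB motif GGGNNTTTC. These were in 7.13%, 7.02% and 3.72% of the 32851 promoters of that length. The window chr2:11705043-11705292 on the plus strand held 1 match, in capitals below, which is GAAANNGAA on the minus strand, 149 bases before the start.
Il15ra: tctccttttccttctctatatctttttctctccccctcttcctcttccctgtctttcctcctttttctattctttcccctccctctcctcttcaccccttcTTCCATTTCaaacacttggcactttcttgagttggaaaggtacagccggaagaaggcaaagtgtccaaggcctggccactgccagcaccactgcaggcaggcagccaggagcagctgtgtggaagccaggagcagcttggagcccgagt
The other start, chr2:11705462-11705711, held no match to the 3 motifs, nor did the window of Il2rg, chrX:101268256-101268505 on the minus strand. A match is a description of letters and not a binding site.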

How the data were processed

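The deposited matrices hold counts of UMIs for every gene in every barcode of the 3 libraries, not normalised by the authors. Per the submitters' processing notes these came from Cell Ranger (6.0.1 in the matrix header) and mm10, and the clusters from Seurat 4.0.0 on integrated data at a resolution of 0.8. The paper differs here, giving 4.0.0 as the version of R and an earlier version for Seurat. Of the 7 columns of the deposited cDC1 table, 3 were not used. Its UMI column equalled the matrix sum in 1885, 1299 and 1375 cells and differed by at most 10, 34 and 4 UMIs in the others.

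Counts were summed per library and group. The sums were filtered with filterByExpr, scaled by TMM and tested by quasi-likelihood in edgeR 4.0.16 (R 4.3.3), with Benjamini-Hochberg adjustment over all genes tested. SE is the size of the log2 fold change over the root of the F statistic. Each sum of 1 library comes from 1 pool of mice, so the library pairs the groups. Deviations of the paired sums from the group means correlated at 0.08, 0.13 and 0.07 for Ccr7, 0.18, 0.30 and 0.31 for Cxcl9, 0.07, 0.11 and 0.09 for Ccr7 against Cxcl9, and 0.05, 0.16 and 0.23 for Ncr1. The library as a replicate block was an alternative. So were DESeq2 1.42.0, library size without TMM, no filter, each library left out, 2 or more UMIs of the dividing gene, 3900 UMIs per cell, cells with NK or T cell UMIs left out, cells outside cluster 8 or 10, and Ncr1 barcodes without other markers. No doublet caller was run. The test was also run on simulated counts, drawn independently with 1 fixed dispersion and no pairing by library. That setting differs from these data, so the run does not measure false calls here. Levels, shares and figures used Python 3.11.15, numpy 2.4.6, scipy 1.17.1, pandas 2.3.3 and matplotlib 3.10.9.

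The 4 genes were named in every comparison. From the list of 41 pathway genes, the 3 highest and 3 lowest log2 fold changes past the threshold were named, and for patterns the 5 highest Pearson r of log2(CPM + 1). The genes set beside clusters 7, 8 and 10 (Irf7, Stat2, Relb, Nfkb1, Irf1 and Nlrc5) were chosen after their values were seen. The 4 genes and the lists were chosen with earlier results of these data known. Outside the cDC1 table, barcodes were grouped in turn by 1 or more Ncr1 UMIs, 3 or more UMIs of Cd3d, Cd3e and Cd3g, 3 or more of Siglech, 1000 CPM of C1qa, C1qb and C1qc, Ccr7 with Fscn1, and Cd209a without Xcr1. Gm20489 is not counted, so Il2rg was used as deposited.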

Additional observations from a re-analysis of the deposited data

Results flagged for a closer look

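Il2rb did not move the same way in every library when cDC1s were grouped by Cxcl9. Its log2 ratio of cells with to cells without Cxcl9 was 0.22 in the WT library, from 9 and 55 UMIs, and 0.80 in the sGSN-/- library, from 26 and 87 UMIs. It was -0.38 in the sGSN-/-Clec9a-/- library, from 4 and 38 UMIs. Between cells with Ccr7 and no Cxcl9 and cells with Cxcl9 and no Ccr7, the log2 ratio of Il2rb was 0.56 in the WT library, from 3 and 8 UMIs, and -1.28 in the sGSN-/- library, from 2 and 13 UMIs. The sGSN-/-Clec9a-/- library had 0 and 4 UMIs there. These values drew attention because libraries of different genotype went in opposite directions. The difference was not tested, and with 1 library per genotype it cannot be told apart from a difference between libraries.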

How the results depend on the processing

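Of the log2 fold changes of the 4 genes under the alternatives, 145 kept their direction and their side of the threshold, 7 lost the call and 3 turned. Of the counts of called genes, 35 were within 1.5 times, 1 was larger and 6 were smaller. Il2rb could not be fitted at 3900 UMIs per cell in the 3 comparisons within cDC1s, nor Il15 in Ccr7 against Cxcl9.

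For cells with against without Ccr7, the cells outside cluster 8 gave 0.86 for Il15, -0.47 for Il15ra, -1.86 for Il2rb and 0.40 for Il2rg, with 61 genes called. Leaving out cells with NK or T cell UMIs gave -0.054 for Il2rb. With 1 library left out, 2608 to 3576 genes were called. For Cxcl9, the replicate block, which pairs the sums of 1 library, called 1587 genes in place of 898 and changed no other call, 3900 UMIs per cell called 503, and 1 library left out 391 to 681, with Il15 at 0.71 to 1.23. For Ccr7 against Cxcl9, 1 library left out called 1325 to 2091 genes. For Ncr1, Il15ra lay at -0.28 without TMM, at -0.25 with 3900 UMIs per barcode, and at -0.63 to -0.44 with 1 library left out. The cause was not tested. Without TMM the median over all genes moved from -0.04 to -0.16 for Ccr7 and from 0.04 to 0.31 for Ncr1.

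In cluster 8, 3900 UMIs per cell gave 37.6 CPM of Il15, 108 CPM of Il15ra and 110.7 CPM of Il2rg, and the mean over cells of each cell's CPM gave 35.2, 129 and 151 CPM. Il15 with Il15ra was then in 0.290% of cDC1s and 6.06% of cluster 8. Both chains were in 88.2% of barcodes with 3 or more Ncr1 UMIs and, at 3900 UMIs, in 48.5% of those with 1 or more. Clusters weighted equally gave 9.39 CPM of Il15 in sGSN-/-Clec9a-/-, 8.44, 11.02 and 9.93 CPM of Il15ra and 25.9, 22.8 and 18.9 CPM of Il2rg. Of the other cluster levels, 243 stayed within 1 SD and 21 moved. Depth limits all 4 genes in cluster 11, and Il15 and Il15ra in cluster 10.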
